A study of Homo sapiens with 12 samples.

Results

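The MCM helicase family was followed through the silencing of cyclin D1 in mantle cell lymphoma cells. The 8 genes are MCM2, MCM3, MCM4, MCM5, MCM6, MCM7, MCM8 and MCM10, taken by symbol from the 23524 gene symbols present in both deposited tables, and each stood on 1 row of each table. Granta-519 and JeKo-1 are established human lines from mantle cell lymphoma, a cancer of B cells whose hallmark translocation puts CCND1, the gene of cyclin D1, under strong immunoglobulin control. Cells of each line received a lentivirus with an shRNA against cyclin D1 (shCycD1) or with a control shRNA (shCtrl) and were selected with puromycin, a treatment that all 4 groups share. Each group holds 3 libraries of stranded mRNA sequencing, 12 in all, which the series design calls biological replicates. The sources used here do not give the number of different shRNAs or the time from infection to harvest. The question was how far the family's RNA drops when cyclin D1 is silenced, line by line, and whether the lines differ.

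MCM2 to MCM7 form the ring-shaped helicase that unwinds DNA at replication forks. The ring is loaded onto origins in G1 by ORC, CDC6 and CDT1, and in S phase it is switched on by the CDC7 kinase together with CDC45 and the GINS complex. MCM10 is not a ring subunit, and it helps the loaded helicase start to unwind. MCM8 forms a separate helicase with MCM9 that acts in homologous recombination. Cyclin D1, with CDK4 or CDK6, phosphorylates RB and so releases E2F factors, and MCM2 to MCM7, MCM10 and most genes of origin licensing are textbook E2F targets whose RNA peaks from late G1 into S phase.

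The promoters are shown for the E2F-type words they hold, since these are the elements through which such genes are known to be tied to RB. In the RefSeq promoter table (build GRCh38.p14, 250 bases before to 50 bases after a gene's start), 6 of the 8 members had an entry. MCM4 and MCM5 had none. Windows were searched on both strands for 8 words of 8 bases: TTTCCCGC, TTTCCCGG, TTTCGCGC, TTTCGCGG, TTTGCCGC, TTTGCCGG, TTTGGCGC and TTTGGCGG. A word on one strand can overlap a word on the other. Capitals mark the words, and each stretch reads 5′ to 3′ on the strand of its gene.
MCM2 (chr3:127598311-127598424, plus strand): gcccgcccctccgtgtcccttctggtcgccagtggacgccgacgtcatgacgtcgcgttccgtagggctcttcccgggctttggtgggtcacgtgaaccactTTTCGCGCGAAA
MCM3 (chr6:52284735-52284842, minus strand): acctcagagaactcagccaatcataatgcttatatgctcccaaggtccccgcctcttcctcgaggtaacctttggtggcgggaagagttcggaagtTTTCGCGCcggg
MCM6 (chr2:135876513-135876603, minus strand): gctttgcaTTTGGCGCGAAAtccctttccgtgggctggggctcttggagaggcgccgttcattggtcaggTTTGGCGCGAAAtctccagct
MCM7 (chr7:100101388-100101417, minus strand): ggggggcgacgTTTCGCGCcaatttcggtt
MCM10 (chr10:13161458-13161571, plus strand): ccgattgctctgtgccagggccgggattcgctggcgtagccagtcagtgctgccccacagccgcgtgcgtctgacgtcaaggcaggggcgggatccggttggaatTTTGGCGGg
MCM8 (chr20:5950667-5950696, plus strand): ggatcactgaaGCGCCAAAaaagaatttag
All 6 windows, 1 for each member, held at least 1 of the words, against 6.19% of the 35116 windows of the table. MCM7 has 3 entries, of which 1 is shown. With the first transcribed base counted as 1, the TTTCGCGC of MCM2 covers bases 3 to 10, that of MCM3 runs across the start from base -4 to 4, and that of MCM7 covers bases -9 to -2. The TTTGGCGG of MCM10 covers bases 6 to 13. MCM6 carries a pair of TTTGGCGC words that begin at bases -152 and -90, each running into a TTTCGCGC word on the other strand. In MCM8 the word TTTGGCGC lies on the opposite strand, at bases 27 to 34. The shorter word CCAAT, searched on both strands, was in 5 of the 6 windows, all but that of MCM2, and in 34.6% of all windows. Of the 18 genes of origin licensing and helicase activation with an entry, 11 held at least 1 of the 8 words in any of their windows (61.1%). That count is by gene, while the 6.19% is by window. A match describes the letters in the window and does not show that a factor binds there.

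CCND1 was lower in every silenced library. In Granta-519 it stood at 924, 1043 and 874 RPKM in shCtrl and at 213, 298 and 292 in shCycD1. In JeKo-1 it stood at 395, 330.1 and 315 and at 65.4, 64.8 and 67.4. RPKM, the name used in the deposit, stands for reads per kilobase scaled to library size, and its scale in Granta-519 is taken up below. The B-cell identity of both lines was visible, with 8 of 9 B-cell markers at a mean of 1 RPKM or more in Granta-519 and 9 of 9 in JeKo-1. Their summed level was 3311 to 3506 RPKM in shCtrl and 2409 to 2559 in shCycD1 of Granta-519, of which CCND1 itself is a part, and 1233 to 1451 and 1354 to 1524 in JeKo-1. Markers of T and NK cells summed to 0.383 to 0.633 RPKM over the Granta-519 libraries and 3.12 to 3.66 over those of JeKo-1. Myeloid markers summed to 39.0 to 51.6 RPKM in Granta-519, nearly all of it CSF1R, and 2.46 to 3.30 in JeKo-1, with MPO at 0 in both. Markers of epithelial cells, fibroblasts and kidney lines summed to 13.2 to 18.3 and 2.57 to 4.55 RPKM. The part of these markers in the results was not tested. The level of the added ERCC spike-in RNAs set 1 Granta-519 library apart. In that line shCtrl library 2 had a spike-in factor of 0.83 (log2, against the mean of the 6 libraries of its line). The other shCtrl libraries there had 0.12 and 0.19 and the shCycD1 libraries -0.48 to -0.23. In JeKo-1 the factors were -0.34, -0.07 and 0.22 in shCtrl libraries 1 to 3 and -0.29, 0.02 and 0.45 in shCycD1 libraries 1 to 3. They rose with the replicate number in both groups. Depth per library is unknown, since the tables hold RPKM values and no counts. The length behind the values was inferred from the tables. In genes whose genomic span is over 2 times their transcript, 71.9 to 86.0% of the low Granta-519 values in a library lay within 0.1 of a whole multiple of 1 step when multiplied by the span, and 19.5 to 21.5% when multiplied by transcript length, so they are read here as per base of span. Low JeKo-1 values were searched for a step in short genes with genomic span only, and showed none. Transcript length was not searched there, so this does not speak to the length behind them. Set against the JeKo-1 values, those of Granta-519 had a median log2 ratio of 1.80 in genes with the least span per transcript length. It was -1.67 in those with the most (1 of 8 equal groups each). JeKo-1 is thus read as per transcript length, and levels are not compared between the tables. Value times length, summed per library, gave 11061686 to 11297682 with span in Granta-519, and 1611293 to 1656098 with transcript length. JeKo-1 gave 1355118 to 1391745 with transcript length, nearer to the second of these. Under the readings used here the sums thus differ between the tables, and the scale factor of the Granta-519 values is unknown. Granta-519 levels, and the filter at 1 RPKM there, are in the deposited unit.

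All 8 MCM genes fell after cyclin D1 silencing in both lines. In Granta-519 the silenced cells kept between 33.1% (MCM10) and 47.5% (MCM3) of the control RNA level, and in JeKo-1 between 6.87% (MCM10) and 27.5% (MCM3). The JeKo-1 percentages rest on reading that table as natural logs, a base inferred from its spike-ins, and read as log2 they would be 11.7% (MCM10) to 39.9% (MCM3). In each line all 8 were called lower by limma at a Benjamini-Hochberg adjusted p under 0.05, where 18.2% of the 12668 genes tested in Granta-519 and 27.8% of the 11866 tested in JeKo-1 were called lower. The shCtrl and shCycD1 libraries did not overlap for any of the 8 in either line, while 24.2% (Granta-519) and 30.5% (JeKo-1) of the tested genes were lower without overlap. A log2 change of -1 or lower with that adjusted p was reached by 7 of 8 in Granta-519, all but MCM8, against 3.0% of genes, and by 8 of 8 in JeKo-1, against 6.98%. The 0.5 added before taking logs understates the change of a low gene such as MCM8, whose mean RPKM in Granta-519 was 2.12 times lower. The median change of the 8 was -1.20 in Granta-519 and -2.15 in JeKo-1. Over all genes tested the median was 0.03 in the former line and 0.09 in the latter (log2(RPKM + 0.5) scale, as for all changes given here). Every member was at 1 RPKM or more in all 12 libraries, so the filter on low values, an RPKM of 1 in at least 3 of the 6 libraries of a line, removed none. These are bulk samples, in which fewer cells in S phase and less MCM RNA per cell cannot be told apart.

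**Figure D1:**
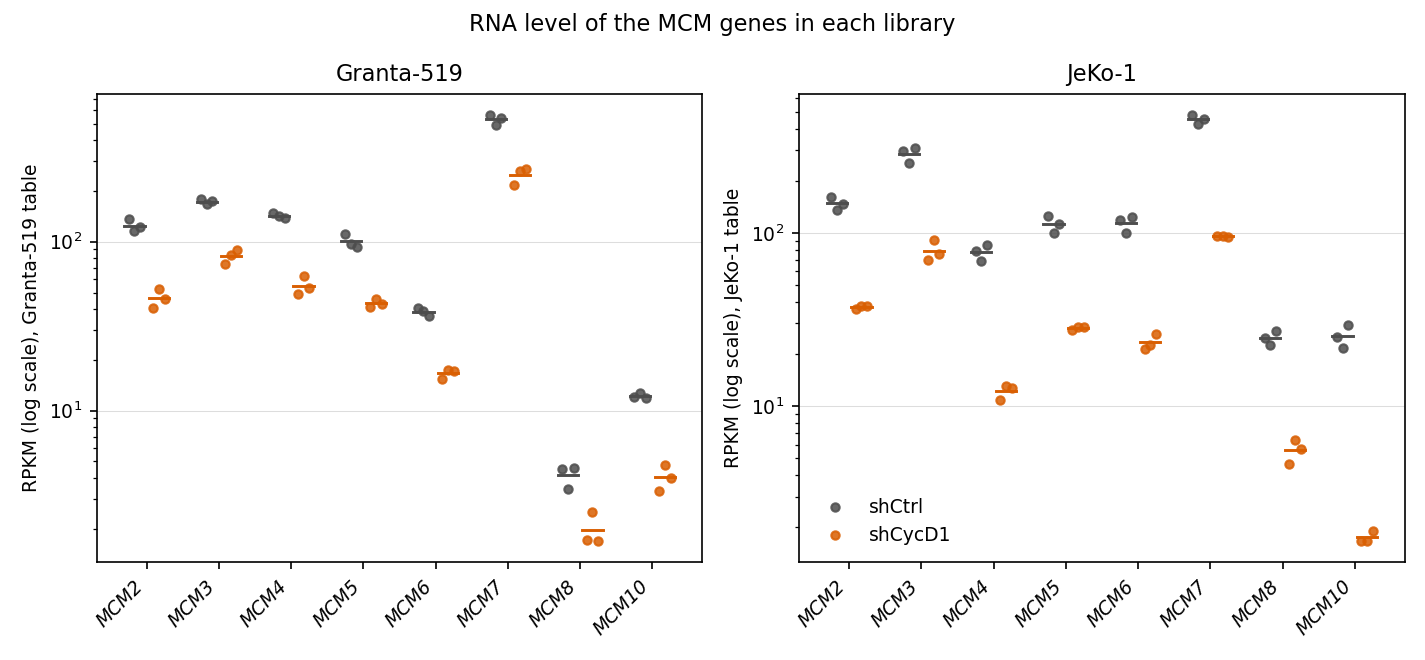
RPKM of the 8 MCM genes in each library (log axis, a separate scale for each table because the gene lengths behind them differ), with shCtrl libraries in grey, shCycD1 libraries in orange and horizontal lines at the group means. For each gene in each line the 3 shCycD1 points lie below the 3 shCtrl points, and MCM10 in JeKo-1 shows the widest gap.

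Among the ring subunits, MCM4, MCM6 and MCM7 form a subcomplex that unwinds DNA on its own in vitro, and MCM2 binds to it. In Granta-519, MCM4 stood at 149, 141 and 138 RPKM in the shCtrl libraries and at 48.8, 63.0 and 53.2 in the shCycD1 libraries, every silenced library being far below every control. The change was -1.38 ± 0.10 (SE, adjusted p = 0.000228, limma). In JeKo-1, the MCM4 libraries stood at 79.1, 68.5 and 84.8 and at 10.8, 13.0 and 12.8 RPKM, a change of -2.62 ± 0.11 (adjusted p = 2.49e-06), which left 15.8% of the control level, the least of the 6 ring subunits in that line. In Granta-519, MCM6 stood at 40.5, 38.9 and 36.1 RPKM in the shCtrl libraries and at 15.4, 17.4 and 17.1 in the shCycD1 libraries, a change of -1.19 ± 0.08 (adjusted p = 0.000191). In JeKo-1, MCM6 went from 119, 100.2 and 124 to 21.4, 22.7 and 26.2 RPKM (-2.26 ± 0.11, adjusted p = 5.06e-06). The silenced libraries of MCM6 lay apart from all controls in both lines, at 16.6 ± 1.07 RPKM (SD, n = 3) in Granta-519 and 23.4 ± 2.47 RPKM in JeKo-1. For MCM7 the Granta-519 controls stood at 564, 493 and 540.5 RPKM and the silenced libraries at 218, 261 and 268, a change of -1.10 ± 0.10 (adjusted p = 0.000433). The JeKo-1 values were 481, 426 and 453 and 96.5, 95.8 and 95.1 RPKM, a change of -2.23 ± 0.07 (adjusted p = 8.64e-07), and the silenced JeKo-1 libraries lay closer together than those of any other ring subunit in proportion to their mean (95.8 ± 0.693 RPKM, SD, n = 3). In Granta-519, MCM2 stood at 137, 115 and 122 RPKM in the shCtrl libraries and at 40.7, 52.4 and 46.0 in the shCycD1 libraries, a change of -1.42 ± 0.11 (adjusted p = 0.000255). MCM2, whose N-terminal tail also binds histones, kept the least of the 6 ring subunits in Granta-519, 37.2% of control, with MCM4 next (38.5%), their log2 changes lying within 1 standard error of each other. The JeKo-1 libraries of MCM2 stood at 162, 135 and 147 and at 36.3, 37.8 and 37.7 RPKM (-1.97 ± 0.08, adjusted p = 2.36e-06).

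MCM3 and MCM5 sit with MCM2 on the side of the ring where the gate opens for DNA between MCM2 and MCM5. In Granta-519, MCM3 stood at 178, 166 and 174 RPKM in the shCtrl libraries and at 73.3, 83.8 and 89.1 in the shCycD1 libraries, a change of -1.07 ± 0.09 (adjusted p = 0.000281). In JeKo-1 the MCM3 values were 298, 252 and 309.8 and 69.8, 91.1 and 75.8 RPKM, a change of -1.86 ± 0.12 (adjusted p = 1.9e-05). MCM3 kept the largest share of its control level of the 8 genes in both lines, although in Granta-519 MCM8 (47.2%) and MCM7 (46.7%) stood close to it, and on the log2(RPKM + 0.5) scale the change of MCM8 was smaller. In Granta-519, MCM5 stood at 111, 96.9 and 93.2 RPKM in the shCtrl libraries and at 41.1, 45.9 and 42.5 in the shCycD1 libraries, a change of -1.20 ± 0.09 (adjusted p = 0.000219). The JeKo-1 libraries stood at 125, 100.2 and 112 and 27.4, 28.7 and 28.7 RPKM (-1.97 ± 0.09, adjusted p = 4.34e-06). Control libraries of MCM5 were spread more widely than the silenced ones in both lines, and none came near a silenced library.

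MCM10, the initiation factor outside the ring, fell furthest of the 8 in both lines. In Granta-519, MCM10 stood at 12.1, 12.7 and 11.8 RPKM in the shCtrl libraries and at 3.36, 4.76 and 3.98 in the shCycD1 libraries, which left 33.1% of control (-1.49 ± 0.12, adjusted p = 0.000282). In JeKo-1 the controls stood at 25.1, 21.8 and 29.5 RPKM and the silenced libraries at 1.67, 1.66 and 1.91, which left 6.87% (-3.52 ± 0.13, adjusted p = 1.46e-06). Counted from the largest fall, MCM10 was gene 71 of 12668 in Granta-519 and gene 33 of 11866 in JeKo-1. The other members lay between places 109 (MCM2) and 503 (MCM8) in Granta-519 and between 147 (MCM4) and 310 (MCM3) in JeKo-1. MCM8, the recombination helicase, had the smallest change of the 8 in Granta-519 on the log2(RPKM + 0.5) scale, which understates changes of low genes. By mean RPKM it kept 47.2% of control there, against 47.5% for MCM3. In that line MCM8 was also the least abundant of the family per transcript length. It stood at 4.49, 3.43 and 4.58 RPKM in the shCtrl libraries and at 1.71, 2.51 and 1.69 in the shCycD1 libraries of that line, a change of -0.93 ± 0.16 (adjusted p = 0.0049), and shCtrl library 2 and shCycD1 library 2 came closest to each other. In JeKo-1 it stood at 24.7, 22.4 and 27.3 and at 4.62, 6.38 and 5.67 RPKM, a change of -2.07 ± 0.13 (adjusted p = 1.72e-05), which lies among those of the ring subunits.

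The Granta-519 result depended on how the libraries were put on a common scale. Scaling to the ERCC spike-ins, synthetic RNAs added to each sample, put the median Granta-519 change over all genes, 0.03 as deposited, at 0.72, and the calls went from 2840 higher and 2303 lower to 7362 higher and 161 lower. Under it 3 of the 8 members were called lower, MCM10 (-0.80, adjusted p = 0.0219, limma), MCM2 (-0.67, adjusted p = 0.0325) and MCM4 (-0.63, adjusted p = 0.0434). The other 5 stayed below 0 without a call: MCM5 at -0.46, MCM6 at -0.45, MCM7 at -0.35, MCM3 at -0.33 and MCM8 at -0.30 (adjusted p of 0.143 to 0.346). Without shCtrl library 2, whose spike-in factor stands apart, all 8 were called lower on the spike-in scale, from -0.58 (MCM3) to -0.99 (MCM10), the median of all genes being 0.50. Of the 12532 genes tested there, 554 were called lower. In JeKo-1 the same scale took the all-gene median from 0.09 to -0.03, and all 8 members stayed called, from -1.98 (MCM3) to -3.63 (MCM10), where 1734 of 11866 genes were called lower. The standard errors of the 8 in JeKo-1 were 0.29 to 0.35 on this scale, against 0.07 to 0.13 as deposited. The fit held no block for the replicate number, with which the JeKo-1 spike-in factors rose in both groups. A JeKo-1 call lost on this scale thus need not mean a smaller change.

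**Figure D2:**
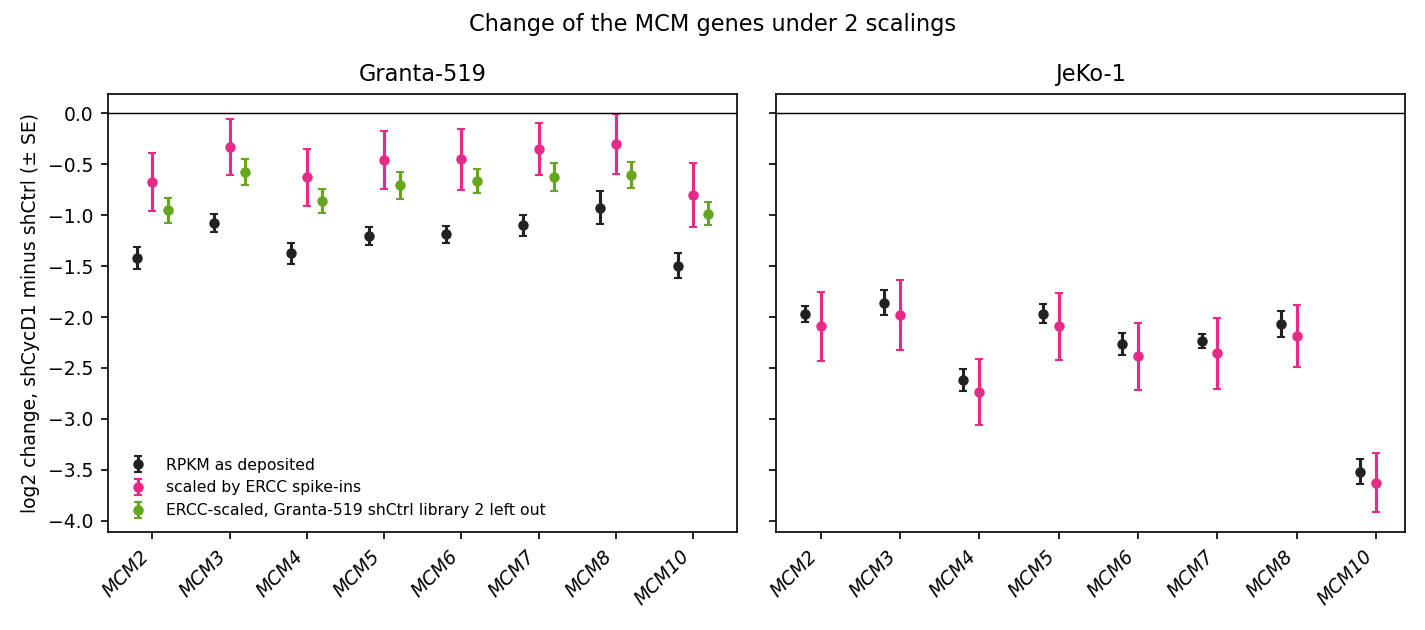
Log2 change of each MCM gene (shCycD1 minus shCtrl, ± SE) with RPKM as deposited (black), with RPKM scaled to the ERCC spike-ins (pink) and, for Granta-519, the same without shCtrl library 2 (green). Spike-in scaling brings the Granta-519 changes toward 0 and leaves those of JeKo-1 near their deposited values.

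The fall was larger in JeKo-1 for every member. The difference between the lines (the Granta-519 change minus the JeKo-1 change, joint limma fit of the 12 libraries) was called for 8 of 8, in the direction of the smaller fall in Granta-519, a call made for 19.3% of the 10653 genes tested in both tables, and for 0 of 8 in the opposite direction, called for 22.6%. It was widest for MCM10, at 2.03 ± 0.18 (SE, adjusted p = 8.19e-06). For MCM4, MCM8, MCM7 and MCM6 it was 1.24 ± 0.15, 1.14 ± 0.22, 1.14 ± 0.12 and 1.08 ± 0.14 (adjusted p of 3.79e-05 to 0.00177). For MCM3, MCM5 and MCM2 it was 0.79 ± 0.16, 0.76 ± 0.13 and 0.55 ± 0.14 (adjusted p of 0.000775 to 0.00901). On the spike-in scale all 8 differences stayed called and were wider, from 1.42 (MCM2, adjusted p = 0.00654, limma) and 1.63 (MCM5) to 2.83 (MCM10), while the median difference over all genes moved from -0.02 to 0.79. That direction was called for 3872 of the 10653 genes on this scale, and the opposite one for 143. The fall of CCND1 differed in the same direction, by 0.55 ± 0.18 (adjusted p = 0.0306), and the part of this in the MCM difference was not tested. The log base of the JeKo-1 table is inferred. Read as log2 in place of the natural log, the table gives smaller changes, and the difference was then called for 5 of 8, the exceptions being MCM2 (-0.03), MCM3 (0.23) and MCM5 (0.19). In that reading the direction of the smaller fall in Granta-519 was called for 1602 of 10130 genes. All 8 were called lower in the average of both lines too, where 29.3% of genes were, from -1.47 for MCM3 to -2.51 for MCM10.

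**Figure D3:**
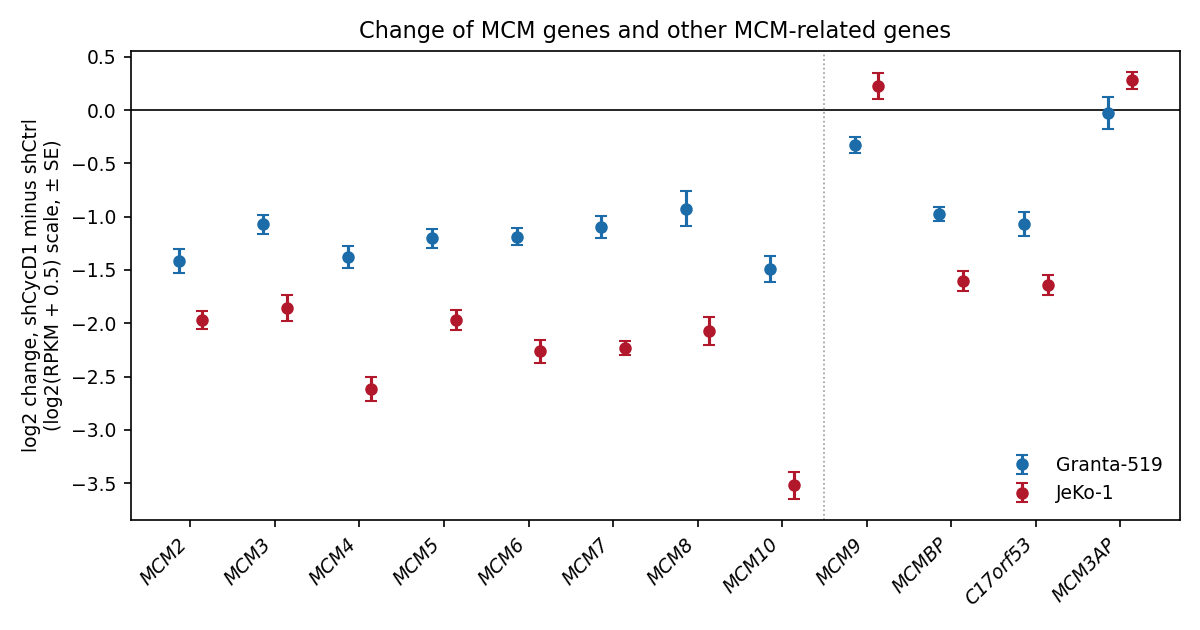
Log2 change (shCycD1 minus shCtrl, log2(RPKM + 0.5) scale, ± SE, 3 libraries a group) of the 8 MCM genes and, right of the dotted line, of 4 other MCM-related genes. Each MCM gene lies lower in JeKo-1 (red) than in Granta-519 (blue), down to -3.52 for MCM10, while MCM9 and MCM3AP lie near 0.

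Since MCM2 to MCM7 act as a ring with 1 copy of each, their RNA was also compared as shares of its sum, with the Granta-519 values first turned from genomic span to transcript length. MCM7 held the largest share in every group, 30.2 ± 0.887% (SD, n = 3) in Granta-519 shCtrl and 38.1 ± 1.26% in JeKo-1 shCtrl, followed by MCM3 at 21.4% and 24.0%. In Granta-519 shCtrl the order went on with MCM2 (15.8%), MCM5 (13.7%), MCM4 (11.7%) and MCM6 (7.22%), and no neighbours in that order overlapped. In JeKo-1 shCtrl it went on with MCM2 (12.4%), MCM6 (9.59%), MCM5 (9.43%) and MCM4 (6.49%), where MCM6 and MCM5 overlapped. On the same scale MCM10 equalled 2.51% of the sum of the 6 in Granta-519 shCtrl and MCM8 0.510%, and in JeKo-1 shCtrl they equalled 2.13% and 2.08%, which overlapped. The Granta-519 shares depend on that conversion: with the values as deposited MCM7 held 47.9% of the shCtrl sum, MCM3 15.6%, MCM4 12.9%, MCM2 11.2%, MCM5 9.02% and MCM6 3.47%, so that MCM4 came before MCM2 and MCM5. The JeKo-1 shares depend on the log base: read as log2, MCM7 held 31.1 ± 0.808% and MCM4 8.88 ± 0.326% of the shCtrl sum.

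Between shCtrl and shCycD1 the proportions differed by a few points of percent. MCM4 had a lower share after silencing in both lines. It held 11.4, 12.1 and 11.5% in Granta-519 shCtrl and 10.2, 11.1 and 9.57% in shCycD1, and 6.26, 6.33 and 6.89% and 4.12, 4.50 and 4.63% in JeKo-1. MCM3 had a higher share in both, with 20.7, 21.6 and 21.8% against 23.2, 22.3 and 24.3% in Granta-519 and 23.6, 23.3 and 25.2% against 26.6, 31.5 and 27.4% in JeKo-1. For MCM2 and MCM7 the sign was opposite in the 2 lines, a difference that was not tested. The share of MCM2 went from 15.8 ± 0.489% to 13.5 ± 0.744% in Granta-519 and from 12.4 ± 0.417% to 13.5 ± 0.395% in JeKo-1, and that of MCM7 from 30.2 ± 0.887% to 32.3 ± 1.01% and from 38.1 ± 1.26% to 34.8 ± 1.85%. These 4 subunits did not overlap between the groups in either line, and MCM5 and MCM6 overlapped in both. With JeKo-1 read as log2 MCM7 overlapped as well (31.1 ± 0.808% and 29.8 ± 1.17%). With the Granta-519 values as deposited all 6 subunits kept the sign of their difference. With 3 libraries against 3 the two-sided exact permutation test cannot go below p = 0.10, the value it gave for MCM2, MCM3, MCM4 and MCM7 in each line, so these values stand as descriptions. For MCM5 and MCM6 it gave 0.80 and 0.80 in Granta-519 and 0.20 and 0.30 in JeKo-1. MCM10 was lower against the ring in the silenced libraries, from 1.99, 2.01 and 2.39% to 0.636, 0.576 and 0.692% of the sum in JeKo-1 and from 2.33, 2.73 and 2.47% to 1.77, 2.1 and 1.80% in Granta-519, without overlap. MCM8 overlapped in both lines (0.510% and 0.551% in Granta-519, 2.08% and 2.01% in JeKo-1).

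**Figure D4:**
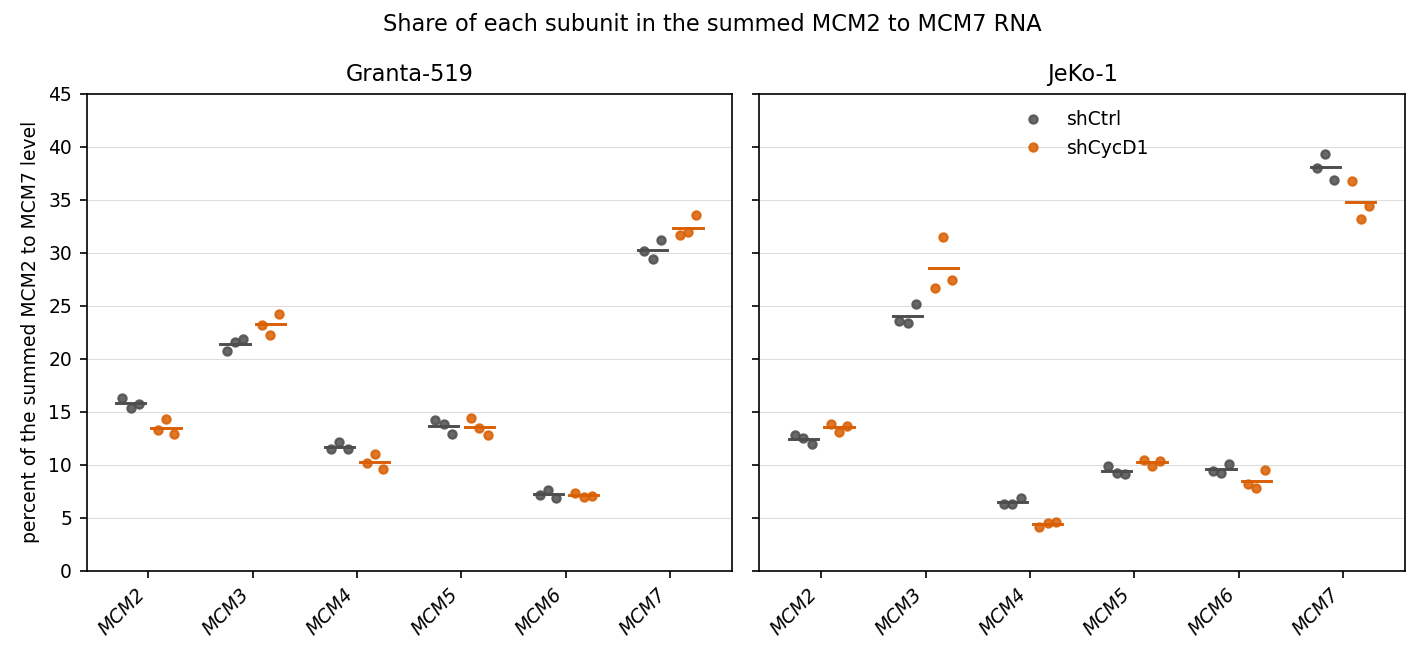
Share of each ring subunit in the summed MCM2 to MCM7 RNA of each library, in percent, with shCtrl in grey, shCycD1 in orange and lines at group means (Granta-519 values per transcript length). MCM4 lies lower and MCM3 higher in shCycD1 of both lines, while MCM2 and MCM7 differ in opposite directions in the 2 lines.

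The change of MCM9, the partner of MCM8, was nearer to 0 than that of any of the 8 members in both lines. In Granta-519, MCM9 stood at 6.29, 6.13 and 6.38 RPKM in the shCtrl libraries and at 4.95, 4.80 and 4.94 in the shCycD1 libraries, a change of -0.33 ± 0.07 (adjusted p = 0.0121), which was not called without shCtrl library 1 (-0.32, adjusted p = 0.0514) and stood at 0.36 without a call with spike-in scaling. In JeKo-1 it stood at 2.90, 2.44 and 3.09 and at 3.38, 3.01 and 3.72 RPKM, and this change of 0.23 ± 0.12 was not called (limma adjusted p = 0.132), the groups overlapping. With a block for the replicate number in the fit, MCM9 was called higher in JeKo-1 (adjusted p = 0.0329). Between the lines MCM9 differed by -0.55 ± 0.13 (adjusted p = 0.00654), opposite in sign to that of MCM8 (1.14), and it was 0.24 without a call with spike-in scaling. MCMBP, which binds MCM proteins and takes part in assembling and unloading the ring, fell by 0.97 in Granta-519 (adjusted p = 0.000189) and by 1.60 in JeKo-1 (adjusted p = 1.23e-05). C17orf53, now named HROB, which recruits MCM8 and MCM9 to damaged DNA, fell by 1.07 in the former (adjusted p = 0.000667) and 1.64 in the latter (adjusted p = 1.03e-05). MCM3AP, the gene of the mRNA export factor GANP, was not called in Granta-519 (-0.03, adjusted p = 0.903). JeKo-1 showed a rise of 0.28 for it (adjusted p = 0.0166), a direction called for 36.7% of genes there, and this call was lost after removal of a trend with GC content (0.05, adjusted p = 0.587), with spike-in scaling (0.16, adjusted p = 0.746) and without shCycD1 library 2 (adjusted p = 0.0568). Of these 4 genes 3 were thus lower in Granta-519, with a median of -0.65, and 2 were lower and 1 higher in JeKo-1, with a median of -0.69. With spike-in scaling the Granta-519 calls were 0 lower and 1 higher, with a median of 0.06. MCMBP stood at -0.24 (limma adjusted p = 0.47) and C17orf53 at -0.38 (adjusted p = 0.259), and the higher gene was MCM3AP (0.71, adjusted p = 0.0347). On that scale the median over all genes was 0.72, and 7362 of 12668 genes were called higher and 161 lower. Without shCtrl library 2 the counts were 2 lower and 1 higher (median -0.15), and in JeKo-1 the spike-in counts were 2 lower and 0 higher.

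The factors that load the ring and start it were lower as well. Of 22 genes of origin licensing and helicase activation, 19 were called lower and 0 higher in Granta-519 (median -1.13), and 21 lower and 0 higher in JeKo-1 (median -2.12), against 18.2% and 27.8% of genes called lower. With spike-in scaling 5 were lower and 1 higher in Granta-519 (15 and 1 without shCtrl library 2), and 19 lower in JeKo-1. Over all genes that scale called 161 lower and 7362 higher of 12668 in Granta-519, where the median was 0.72. Without shCtrl library 2 it called 554 lower and 7894 higher of 12532, and in JeKo-1 1734 lower of 11866. Log2 changes below are given for Granta-519 first and JeKo-1 second. Of the origin recognition complex, ORC1, its cell-cycle regulated subunit, fell in both lines (-1.51 and -3.15), as did ORC6, by 0.62 and 0.91, and ORC2, by 0.33 and 0.61. The Granta-519 call of ORC2 (adjusted p = 0.0393) was lost with no low-value filter (adjusted p = 0.065) and on leaving out any 1 library but shCtrl library 2 (adjusted p of 0.0515 to 0.136). On the spike-in scale ORC2 stood at 0.36 there, ORC6 at 0.13 and DBF4, the activator of CDC7, at 0.01, each without a call, and in JeKo-1 the calls of ORC2 (-0.72, adjusted p = 0.0539) and ORC5 (described next; -0.73, adjusted p = 0.0627) were lost. ORC3 and ORC5 were called in JeKo-1 (-1.05 and -0.61) and not in Granta-519 (-0.25 and -0.09), and ORC4 was called in neither (0.26 and -0.11), although in Granta-519 it was called higher with the GC trend removed (0.25, adjusted p = 0.032) and with spike-in scaling (0.92, adjusted p = 0.00742). The loaders CDC6 (-1.36 and -3.34) and CDT1 (-1.46 and -2.78) and the CDT1 inhibitor geminin, GMNN (-1.16 and -2.74), fell in both lines. So did the kinase CDC7 (-1.35 and -3.03) and its activator DBF4 (-0.71 and -2.06). The other parts of the active helicase fell too, namely CDC45 (-1.45 and -3.55), GINS1 (-1.30 and -2.64), GINS2 (-1.57 and -3.23), GINS3 (-1.32 and -1.94) and GINS4 (-1.10 and -1.59). Factors that bring these to the ring were TICRR (-1.44 and -2.86), MTBP (-0.75 and -1.45), TOPBP1 (-1.02 and -1.73), RECQL4 (-1.20 and -1.53), DONSON (-0.73 and -2.54) and WDHD1 (-1.11 and -2.18), all called lower in both lines.

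Downstream of unwinding, the fork-pausing and mediator genes CLSPN (-1.30 and -2.91), TIMELESS (-1.23 and -1.68) and TIPIN (-0.85 and -2.06) were lower in both lines (3 of 3 each, medians -1.23 and -2.06). Of the replicative polymerases, PCNA, the clamp loader and their partners, 18 of 19 tested were lower in Granta-519 (median -1.04) and 19 of 20 in JeKo-1 (median -2.04), none higher, the widest mean changes being PRIM1 (-1.25 and -3.14), PCNA (-1.20 and -3.08), POLE2 (-0.92 and -3.07) and LIG1 (-1.27 and -2.18). The gene not called was POLA1, of polymerase alpha, in Granta-519 (0.07, against -2.02 in JeKo-1), and POLD2 in JeKo-1 (-0.07, and -0.46 with a call once the GC trend was removed), and PRIM2 was too low to test in Granta-519. These 3 were picked after their values were seen. Among 13 E2F and RB family genes, 5 were lower and 1 higher in Granta-519 (median -0.06), and 7 lower and 4 higher in JeKo-1 (median -0.72). Over all genes 18.2% were lower and 22.4% higher in Granta-519, and 27.8% and 36.7% in JeKo-1, so nothing is read from the higher counts. The widest falls in this list were E2F8 (-1.57 and -3.60), E2F2 (-1.47 and -3.21), RBL1 (-1.17 and -2.48) and E2F1 (-1.42 and -1.95). The 4 genes higher in JeKo-1 were TFDP2 (1.11), also higher in Granta-519 (0.34), E2F5 (0.93), RBL2 (0.78) and the repressor-type E2F4 (0.71), named after their values were seen. With spike-in scaling the JeKo-1 calls of RBL2 (0.66, limma adjusted p = 0.088) and E2F4 (0.58, adjusted p = 0.182) were lost. The Granta-519 call of TFDP2 was lost without shCtrl library 1 (limma adjusted p = 0.0605) or shCycD1 library 3 (adjusted p = 0.0579). All 16 genes of G2 and mitosis were lower in both lines (medians -1.37 and -3.40), led by TOP2A (-1.51 and -4.01), CDK1 (-1.38 and -3.94), MKI67 (-1.45 and -3.80) and BIRC5 (-1.52 and -3.72). With spike-in scaling the Granta-519 counts were 0 of 3 fork-pausing genes lower, 0 lower and 1 higher of the polymerase genes, 3 lower and 4 higher of the E2F and RB genes and 7 lower of the G2/M genes. Without shCtrl library 2 they were 2 of 3, 12 lower and 1 higher, 5 lower and 8 higher, and 16. Over all genes the first of these scales called 161 lower and 7362 higher of 12668. The second called 554 lower and 7894 higher of 12532, so nothing is read from the higher counts.

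**Figure D5:**
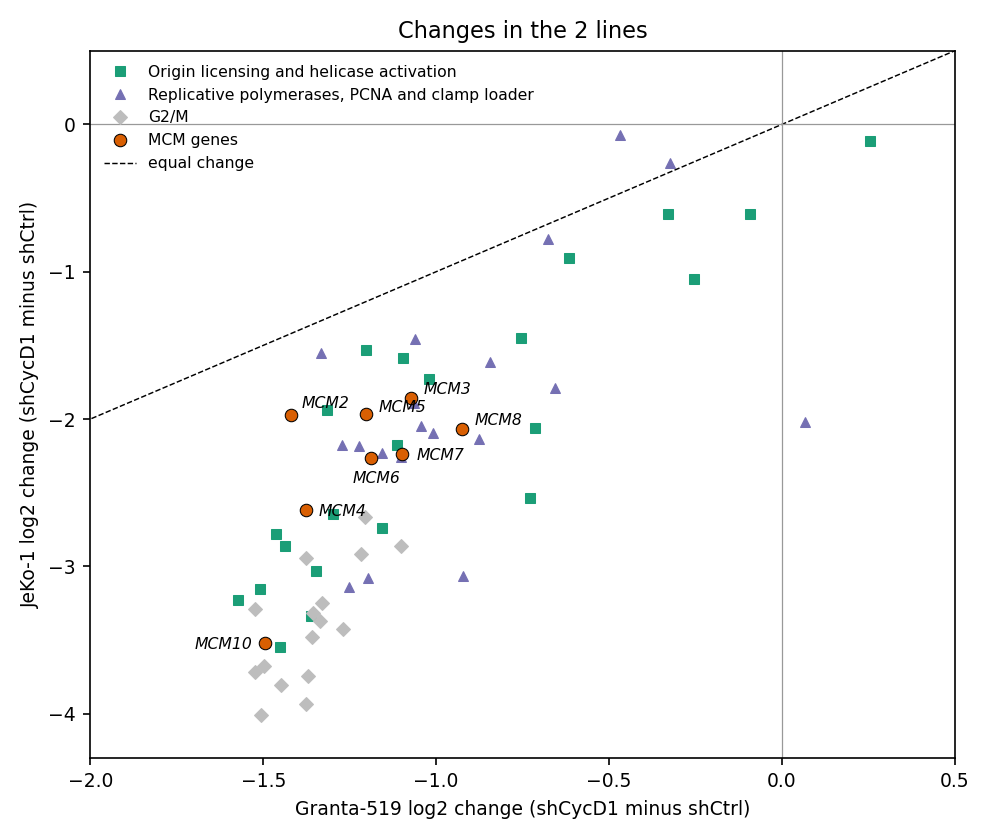
Log2 change in Granta-519 (x axis) and JeKo-1 (y axis) of the MCM genes (orange circles) and of 3 related gene lists, with a dashed line where both changes are equal. The MCM genes lie below the line, as do most genes of the lists, with MCM10 at -1.49 and -3.52 beside the G2/M genes and the other MCM genes between -2.62 and -1.86 in JeKo-1.

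The member profiles were compared over the 12 libraries by the root-mean-square difference of their log2 values, each set to the shCtrl mean of its line. The closest members were MCM6 and MCM7 (0.11 on the log2 scale) and MCM2 and MCM5 (0.12), and the farthest apart were MCM3 and MCM10 (0.87). Among the 10653 genes tested in both tables, those nearest to the mean of MCM2 to MCM7 were LIG1, DNA ligase I (0.06), WDR62, a spindle pole protein (0.08), FEN1, the flap endonuclease (0.10), TMPO, a nuclear lamina protein (0.10), and TUBA1B, an alpha-tubulin (0.10). Nearest to MCM10 were CDC45 (0.11), E2F8 (0.12) and WDR76 (0.13). Nearest to MCM8 were FANCB of the Fanconi anaemia core complex (0.09), the kinetochore gene KNTC1 (0.12) and ATAD5, which unloads PCNA (0.13). These are descriptions over 2 lines that share the same contrast, and nearness rests mostly on the size of the change in each line.

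Genes beside the members on the chromosome were called in both directions, and only some of them are named here. In the RefSeq annotation 20 genes of both tables lie next to a member or overlap it, and of the 15 tested in each line 2 were lower, 4 higher and 9 not called in Granta-519, and 7 lower, 3 higher and 5 not called in JeKo-1. Over all genes 18.2% were lower and 22.4% higher in the first line and 27.8% and 36.7% in the second, so nothing is read from these counts. PRKDC, the catalytic subunit of DNA-PK, is the head-to-head neighbour of MCM4. It stood at 35.7, 23.0 and 32.5 RPKM in Granta-519 shCtrl and at 15.1, 25.4 and 17.9 in shCycD1, with overlap and no call (-0.64, adjusted p = 0.0615). It was called lower there without shCtrl library 2 (-0.83, adjusted p = 0.0262), without shCycD1 library 2 (-0.85, adjusted p = 0.023) and with library weights (-0.95). In JeKo-1 PRKDC fell from 39.0, 47.6 and 52.3 to 18.9, 23.8 and 18.1 RPKM (-1.17, adjusted p = 0.000335), which left 43.8% of control against 15.8% for MCM4. TRMT6, a tRNA methyltransferase subunit next to MCM8, was at -0.14 in Granta-519 without a call (adjusted p = 0.369) and fell by 0.73 in JeKo-1 (adjusted p = 8.9e-05). With spike-in scaling and without shCtrl library 2, TRMT6 was called higher in Granta-519 (0.45, limma adjusted p = 0.0199). AP4M1, an adaptor subunit gene that overlaps MCM7, was called in neither line (-0.19 and -0.16), but with the GC trend removed it was called lower in both (-0.24, adjusted p = 0.045, and -0.52, adjusted p = 0.00147), as it was in the average of the lines (-0.18, adjusted p = 0.0202). With spike-in scaling and without shCtrl library 2, AP4M1 was called higher in Granta-519 (0.34, limma adjusted p = 0.0441). It stood at 22.1 and 19.3 RPKM in Granta-519, and at 13.3 and 11.9 in JeKo-1. Whether the counting used strand is not given in the sources used here, so reads of the overlap cannot be assigned. The microRNA genes MIR25, MIR93 and MIR106B lie inside MCM7 and were not called in the main fit (MIR93 was tested in Granta-519 only). In Granta-519, MIR106B and MIR93 were called higher with spike-in scaling (1.39 and 2.25). MIR106B was also called higher with that scaling and without shCtrl library 2 (1.06), and without shCycD1 library 3 (0.91). Libraries of this kind do not measure mature microRNAs. Spike-in scaling called 7362 of 12668 Granta-519 genes higher, and 7894 of 12532 without shCtrl library 2. On the other sides of MCM7, COPS6 (-0.68 and -0.76) and TAF6 (-0.60 and -0.83) were lower in both lines, and stood at 0.07 and 0.13 without a call in Granta-519 with spike-in scaling. TPRA1 next to MCM2 (0.49 and 0.75) and the haem oxygenase gene HMOX1 next to MCM5 (0.97 and 0.91) were higher in both lines. With spike-in scaling TPRA1 lost its JeKo-1 call (0.63, limma adjusted p = 0.101).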

How the data were processed

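RNA levels were measured in 12 libraries, 3 for each of 4 groups named in the sample titles. For each line there is 1 table that the authors deposited as RPKM, whose values are read here as the natural log of RPKM + 1. In Granta-519 low values fell on whole multiples of a step with this base (71.5 to 75.8% of values, tolerance 0.1, against at most 46.0% with base 2). In JeKo-1 the base is inferred from the spread of the spike-ins (ratio of SDs to Granta-519 of 0.97, against 0.70 with base 2). Per the submitters' processing notes, the tools were TopHat2 2.1.1, limma 3.9 and FastQC and the build was hg19 (GRCh37). The sources used here name no counter, annotation or log transform, and depth is unknown.

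Values were taken out of the log, with 1 row per symbol, that of the highest mean, and limma 3.58.1 (R 4.3.3, trended empirical Bayes) was run per line on log2(RPKM + 0.5), a scale that understates the change of low genes. Tested genes had an RPKM of at least 1 in 3 or more of 6 libraries. A joint fit gave the difference and the average. Benjamini-Hochberg adjusted p under 0.05 was called, over all genes tested. The fit was tested on simulated data. Shares used GENCODE gene spans and longest protein-coding transcripts of GRCh38, and promoters and neighbours used RefSeq. The members and gene lists were chosen with earlier results of these data known. All 8 members are named, as are the licensing and MCM-related genes, up to 4 genes of the widest mean change of each other list, some of the chromosomal neighbours, and the 5, 3 and 3 genes nearest in profile. Alternatives were other pseudocounts (0.1 and 1), no filter, a mean RPKM of 5 or more, quantile normalization, spike-in scaling (49 spike-ins), summed rows, library weights, a replicate block, removal of a GC trend, JeKo-1 read as log2 and each library left out. Spike-in scaling without Granta-519 shCtrl library 2 was added after seeing the data.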

Additional observations from a re-analysis of the deposited data

Results flagged for a closer look

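The fall after silencing differed between the lines for all 8 members, by the test of the difference itself (Granta-519 change minus JeKo-1 change, joint limma fit, adjusted p under 0.05). The differences were 0.55 for MCM2, 0.79 for MCM3, 1.24 for MCM4, 0.76 for MCM5, 1.08 for MCM6, 1.14 for MCM7, 1.14 for MCM8 and 2.03 for MCM10 (log2 scale), each a smaller fall in Granta-519. CCND1 differed in the same direction (0.55) and MCM9 in the opposite one (-0.55).

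For a pair of ring subunits the share of the summed MCM2 to MCM7 RNA differed between shCtrl and shCycD1 in opposite directions in the lines, with no overlap of libraries. The shift in Granta-519 minus that in JeKo-1 was -3.46 percentage points for MCM2 and 5.38 for MCM7. This difference was not tested. With JeKo-1 read as log2 the MCM7 shares of its groups overlapped.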

How the results depend on the processing

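Of the alternatives for single members in each line, the difference and the average, 677 kept the direction and the call. With spike-in scaling the count of members called lower in Granta-519 was 3, and 8 without shCtrl library 2. Over all genes 161 of 12668 and 554 of 12532 were called lower in these settings. When the JeKo-1 values were taken as log2, the count of members whose difference was called was 5, with MCM2 at -0.027 (limma adjusted p = 0.896, over alternatives of 0.000303 to 0.896), reversed, and the JeKo-1 changes were smaller but all called, MCM10 at -2.59 and MCM3 at -1.30. In that reading 1602 of 10130 genes had a difference called in the members' direction, and 3161 of 11014 were lower in JeKo-1. With any 1 library left out, 8 members stayed called in each line, in the difference and in the average. MCM10 then ranged over -1.61 to -1.38 in Granta-519 and -3.63 to -3.41 in JeKo-1, and MCM8 over -1.08 to -0.85 in Granta-519. With a mean RPKM of 5 or more required, MCM8 was not tested in Granta-519, the difference or the average. The number of ring subunits whose shares did not overlap was 4 in each line, 4 to 5 in JeKo-1 with a library left out, and 3 with JeKo-1 read as log2.

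The sample titles give replicate numbers and no pairing. Same-number correlations of deviations were 0.01, -0.12 and 0.03 in Granta-519, where other pairs had -0.12 to 0.11. In JeKo-1 they were 0.19, 0.09 and 0.10, against -0.10 to 0.0005 for other pairs, so each library correlated best with its own number. The JeKo-1 spike-in factors also rose with the number in both groups (-0.34, -0.07 and 0.22 in shCtrl, -0.29, 0.02 and 0.45 in shCycD1). A pairing in JeKo-1 thus cannot be set aside, and neither the main fit nor the fit with spike-in scaling used one. A block for the number took the JeKo-1 calls from 4357 higher and 3303 lower to 4901 and 3806. Those of Granta-519 went from 2840 and 2303 to 2285 and 1903. A replicate block kept all 8 members called, with changes of -1.49 to -0.93 in Granta-519 (adjusted p of 0.00326 to 0.0259, limma) and -3.52 to -1.86 in JeKo-1 (adjusted p of 1.53e-05 to 0.000224). With it MCM9 was called higher in JeKo-1 (0.23, adjusted p = 0.0329) and ORC2 was not called in Granta-519 (adjusted p = 0.0502).

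Over all genes, 2303 were lower in Granta-519, 3579 with library weights, 161 with spike-in scaling and 554 with it and without shCtrl library 2. The 2840 higher genes became 1700 without shCycD1 library 1, and 7362 and 7894 with the spike-in settings. In JeKo-1, 3303 lower and 4357 higher became 1734 and 1688 with spike-in scaling. The difference had 2053 higher and 2410 lower, 3872 and 143 with spike-in scaling (2659 and 168 without that library) and 2121 and 1597 with the GC trend removed, and 3241 higher with no low-value filter. The average had 3123 lower, and 773 with spike-in scaling (1041 without that library). Without the low-value filter it had 6466 higher, against 3940. The causes were not tested. Without counts, the limit that depth sets on the least abundant members, MCM8 in Granta-519 and MCM10 in the silenced JeKo-1 cells, cannot be given.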
